A study of Brassica napus with 74 samples.

Results

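A set of 150 genes of 101040 in Brassica napus cv. Topas seeds was selected by its level in both the micropylar endosperm and the peripheral endosperm of the heart stage. For each gene, the mean log2(TPM + 1) was taken in every subregion, where TPM is a read count scaled by gene length and by the total of the library. The score was the lower of the heart micropylar endosperm (hMCE) and heart peripheral endosperm (hPEN) means minus the highest mean among the other 14 subregions of the globular and heart stages. The 150 genes with the highest scores are the members, and 1561 genes scored above 0. The rule used every globular and heart library, so member levels in those libraries are described here without a test.

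The study dissected seeds by laser and sequenced the RNA of 74 libraries from 26 subregions. Each library was a pool of sections from several plants of the same unmodified cultivar, so p-values measure the spread between these pools. Subregions carry a stage prefix for ovule (ov, 0 days after pollination), globular (g, 7 days), heart (h, 10 days) or mature green (mg, 28 days). The tissues were the micropylar (MCE), peripheral (PEN) and chalazal (CZE) endosperm, the embryo proper (EP), and 4 maternal tissues, which were the inner (ISC), outer (OSC) and chalazal (CZSC) seed coat and the chalazal proliferating tissue (CPT). The mature green embryo was split into cotyledons (COT) and root (ROOT), and mature green endosperm was not analysed here. There were 4 hMCE and 2 hPEN libraries, against 42 other globular and heart libraries, with 10 mature green maternal, 5 mature green embryo and 11 ovule libraries besides.

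The endosperm is the filial tissue that feeds the embryo. In Brassicaceae seeds it begins as a syncytium and later forms cell walls, the MCE lying around the base of the embryo and the PEN lining the inner face of the seed coat. LEC1, a regulator of embryo development and seed maturation, is known from Arabidopsis to be active in both embryo and endosperm.

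Depth was recovered from the steps between low TPM values and ran from 265765 to 26215117 reads per library as a lower limit. It was 2534545 to 11170598 in hMCE libraries, and 9185880 and 12957706 in hPEN libraries. The tissue labels were checked against marker genes. LEC1 (BnaC07g14150D and BnaA07g10770D) summed to 361, 391, 323 and 319 TPM in hMCE, and to 597 and 1001 TPM in hPEN. Its sum was 63.1 to 88.0 TPM in hEP, 93.0 to 104 TPM in gEP and 4.87 and 5.26 TPM in hCZE. CEP1, a cysteine endopeptidase of dying cells, served as the inner maternal marker (BnaA03g23380D and BnaC03g27700D). It stood at 24.3 to 26.8 TPM in hMCE and at 17.7 and 15.0 TPM in hPEN, against 3890 to 6764 TPM in hISC. The level was lower in other filial tissue of the heart stage, at 2.74 and 6.33 TPM in hCZE and at most 1.04 TPM in hEP. CUT1, an outer seed coat wax gene, was at most 0.515 TPM in hMCE and 168 to 195 TPM in hOSC. The same wax genes were at 0.0906 and 0.124 TPM in hPEN. WIH1 and WIH2, the nucellus and chalaza markers, summed to 75.8 to 166 TPM in hMCE and 126 to 159 TPM in hPEN. The sum was 218 to 237 TPM in hISC and 213 to 299 TPM in hCPT, so it did not separate the tissues as the other lists did. WIH1 alone was at 75.6 to 118 TPM in hCPT and 14.6 to 35.5 TPM in hCZSC. It was at 1.90 to 8.22 TPM in hMCE, 3.90 and 5.11 TPM in hPEN and at most 5.34 TPM in hISC. One inner seed coat library, hISC replicate 1, also carried LEC1 at 64.5 TPM, against 3.96 and 17.7 TPM in hISC replicates 2 and 3. A further pair of heart libraries stood apart from their replicates. The hCPT replicate 3 library had LEC1 at 28.1 TPM, against 2.24 and 0.507 TPM in replicates 1 and 2, and hCZSC replicate 3 had 98001 genes above 1 TPM. The gMCE replicates 1 to 3 correlated with replicates 4 and 5 at r = 0.64 to 0.67 over all genes (log2(TPM + 1), 6 pairs), against 0.92 to 0.98 among hMCE libraries. Tissue labels went against the titles in mgCPT replicate 1 (endosperm) and mgCOT replicates 1 and 2 (seed coat). Titles were followed here, and results are given without these libraries where they changed. Fewer cells of a type and less RNA per cell cannot be told apart in dissected tissue.

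The members filled a sizeable share of the transcripts in both tissues. Their summed level was 33181, 36082, 27643 and 26844 TPM in the hMCE libraries and 43843 and 64465 TPM in the hPEN libraries. That is 2.68 to 3.61% of all TPM in hMCE, and 4.38 and 6.45% in hPEN. The other 42 globular and heart libraries summed to 63.8 to 7268 TPM, and the highest of these was hISC replicate 1. Without that library the range was 63.8 to 1525 TPM. The other hISC libraries had 563 and 1525 TPM, and the chalazal proliferating tissue libraries of the heart stage had 177, 127 and 1413 TPM. Sums were 833 and 909 TPM in hCZE, 543 to 675 TPM in hEP and 641 to 739 TPM in gEP. The 2 gPEN libraries had 174 and 206 TPM, and 1 gMCE library had 1306 TPM where the other 4 had 695 to 783 TPM.

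**Figure D1:**
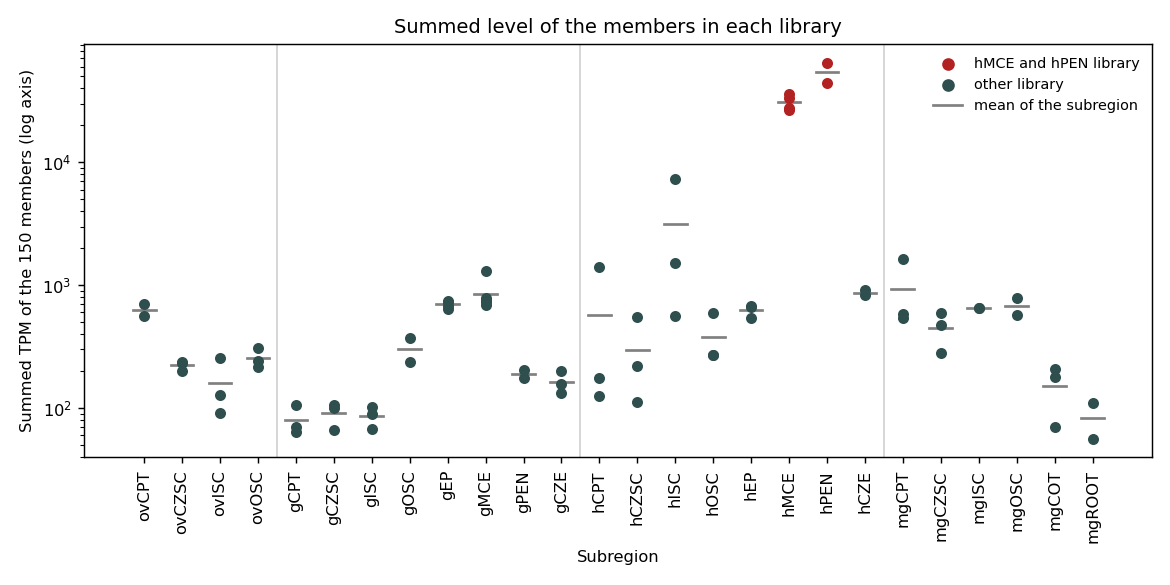
Summed TPM of the 150 members in each library (points), by subregion, on a log axis, with a line at the mean of each subregion. The 4 hMCE libraries (26844 to 36082 TPM) and 2 hPEN libraries (43843 and 64465 TPM) sit above all others, and hISC replicate 1 (7268 TPM) is the nearest.

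A few genes carried most of this sum. BnaC04g30640D had 10758, 12324, 8915 and 8513 TPM in hMCE, and 10693 and 15009 TPM in hPEN. It alone held 31.7 to 34.2% of the member sum in hMCE, and 24.4 and 23.3% in hPEN. Its next subregion was hISC, at 1805, 147 and 484 TPM. It was also detected in other embryo and endosperm libraries, at 424 and 445 TPM in hCZE, 215 to 320 TPM in hEP, 268 to 346 TPM in gEP and 4.10 to 190 TPM in gMCE. Together the 10 most abundant members of each library held 60.8 to 62.9% of the member sum. Mean TPM over both tissues was at least 1000 for 11 members and at least 100 for 55, and it was at least 10 for all 150.

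The other abundant members each exceeded 1000 TPM in both hPEN libraries. BnaC09g41380D had 1282, 1375, 1070 and 1032 TPM in hMCE and 2363 and 3662 TPM in hPEN. BnaC01g20930D had 1264, 1336, 1045 and 1062 TPM in hMCE and 2194 and 3521 TPM in hPEN. Both stood at 305 and 307 TPM in hISC replicate 1, below each hMCE and hPEN library. BnaA06g06160D had 1535, 1754, 1336 and 1320 TPM in hMCE and 2098 and 3037 TPM in hPEN. Its closest other subregion was the globular outer seed coat, with a mean of 168 TPM. BnaC05g07900D (962, 1204, 839 and 832 TPM in hMCE, 1348 and 2058 TPM in hPEN) and its identifier neighbour BnaC05g07890D (911, 1331, 966 and 966 TPM in hMCE, 1306 and 1790 TPM in hPEN) were also high. Both were detected in gMCE, at 26.9 to 77.8 TPM and at 7.18 to 115 TPM. BnaAnng40430D had 2617 and 3094 TPM in hPEN and 949, 938, 703 and 665 TPM in hMCE. BnaAnng33170D had 2275 and 3390 TPM in hPEN and 1009, 699, 638 and 620 TPM in hMCE. The mean ratio of hPEN over hMCE was 3.51 for BnaAnng40430D and 3.82 for BnaAnng33170D, with no overlap of the libraries. BnaA02g24090D (856, 964, 583 and 546 TPM in hMCE, 1350 and 2107 TPM in hPEN) and BnaC01g22560D (945, 656, 761 and 757 TPM in hMCE, 1350 and 1997 TPM in hPEN) completed the group. BnaC01g22560D also had 96.4 to 243 TPM in gMCE.

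The genes with the highest scores were mostly less abundant than these. BnaC03g36310D, with the top score of 5.10, had 122, 185, 133 and 129 TPM in hMCE and 86.6 and 303 TPM in hPEN, against 3.86, 2.65 and 2.93 TPM in hEP, its next subregion. BnaC03g12660D, the next gene by score, had 126, 213, 113 and 105 TPM in hMCE and 136 and 323 TPM in hPEN, against 2.11 to 4.30 TPM in hEP. BnaA03g31000D had 261, 262, 246 and 252 TPM in hMCE and 167 and 678 TPM in hPEN, against 5.62 to 8.30 TPM in hEP. In all 3 genes the 2 hPEN pools differed more from each other than the 4 hMCE pools did, and hISC replicate 1 was the highest other library, at 21.4, 34.4 and 39.7 TPM. BnaCnng49680D (164, 142, 143 and 136 TPM in hMCE, 175 and 285 TPM in hPEN) and BnaC04g36500D (124, 98.0, 113 and 120 TPM in hMCE, 129 and 190 TPM in hPEN) had hISC next. BnaC06g21820D had 75.7, 95.9, 66.3 and 67.1 TPM in hMCE, and 54.4 and 74.7 TPM in hPEN, against 0.520 to 4.31 TPM in hCZSC. BnaC05g49410D had 636 and 1138 TPM in hPEN and 392, 586, 307 and 295 TPM in hMCE, and was at 107 TPM in hISC replicate 1. The scores of the 12 highest ran to 4.34, and also included BnaA09g12700D, BnaCnng77960D, BnaA07g18860D, BnaA07g23590D and BnaC01g20930D.

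**Figure D2:**
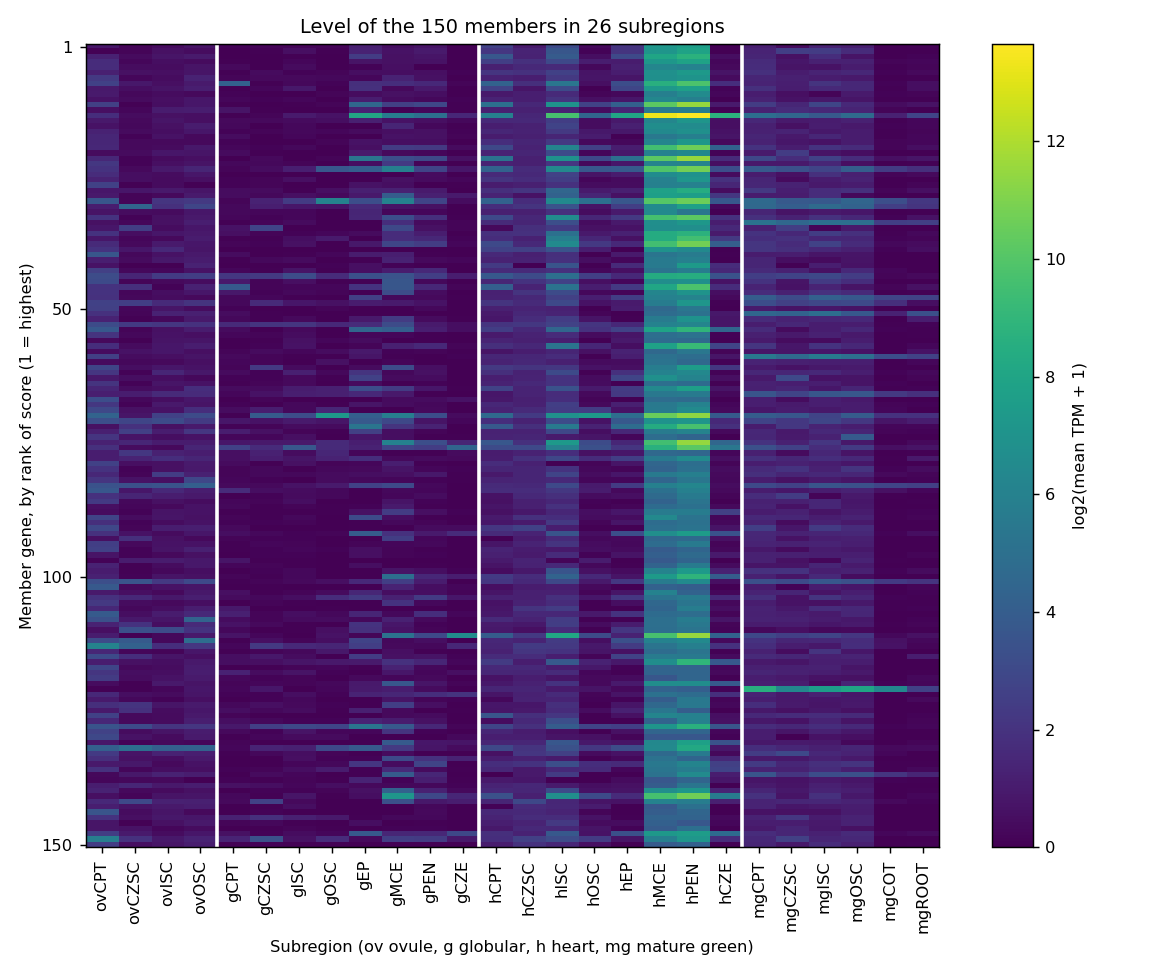
The log2(mean TPM + 1), as colour, of the 150 members (rows, by score) in the 26 subregions (columns). The hMCE and hPEN columns hold the highest mean for 147 members, and the hISC column shows the low level that is the next highest for 67 members.

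The whole set was graded rather than split. Mean TPM ran from 11.7 to 10127 in hMCE (median 50.6), and from 11.8 to 12851 in hPEN (median 65.2), against 1.09 to 812 in the next subregion (median 4.63). Scores ran from 2.46 to 5.10 with a median of 3.10, so the lower endosperm mean was 5.52 to 34.3 times the next subregion on the TPM + 1 scale, with a median of 8.60. The lowest members, BnaA02g14990D, BnaC04g34810D and BnaAnng23240D, scored 2.48, 2.47 and 2.46. Genes just below the limit, BnaA05g19470D, BnaC08g35260D and BnaC06g17380D, scored 2.46, 2.46 and 2.45.

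In 144 of the 150 members, all 6 endosperm libraries were above every one of the 42 other globular and heart libraries. The same held for 490 of 101040 genes, or 0.485%, and the rule itself sets this difference. Of the 6 exceptions, BnaC03g66490D, BnaA05g15140D, BnaAnng40430D and BnaC05g43670D overlapped with hISC replicate 1, at 11.4, 26.3, 723 and 31.6 TPM there. BnaC06g26240D overlapped with gMCE replicate 4, at 43.8 TPM, and BnaC08g31530D with gMCE replicate 2, at 14.9 TPM. The highest of the other libraries was hISC replicate 1 for 97 members, followed by gMCE replicate 1 and hCZSC replicate 3 for 9 members each.

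**Figure D3:**
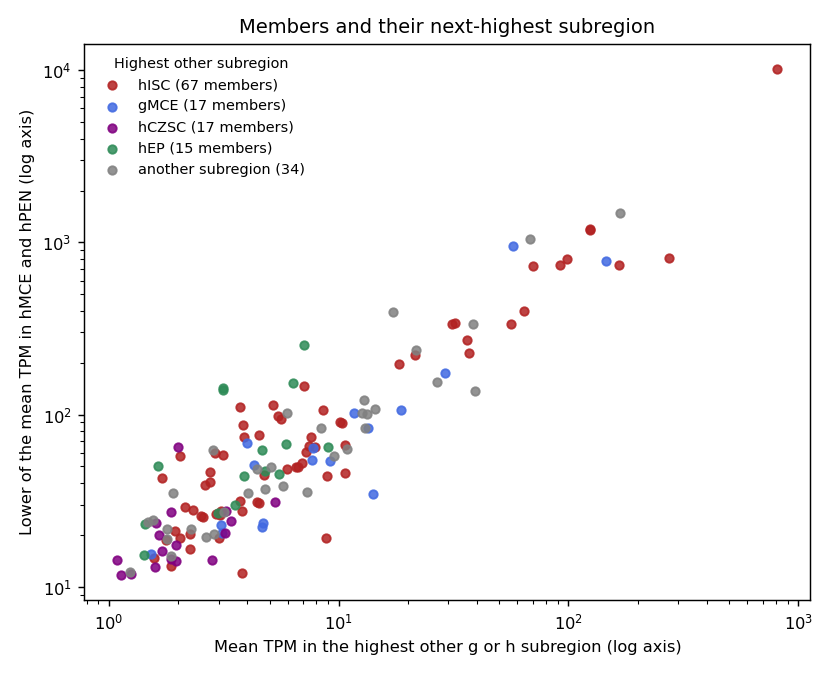
Lower of the hMCE and hPEN mean TPM of each member (y axis) against its mean TPM in the highest other globular or heart subregion (x axis), both on log axes, coloured by that subregion. The next highest level runs from 1.09 to 812 TPM, and hISC is that subregion for 67 members, the largest group.

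The next highest subregion was hISC for 67 members (44.7%), against 171 of the 1561 genes that scored above 0. It was gMCE for 17 members, hCZSC for 17, hEP for 15, gEP for 9 and hCZE for 8. When hISC replicate 1 was left out, hISC was next for 29 members and hCZSC for 35, and 142 of the 150 genes stayed in the set. Member levels in hISC replicate 1 were a median 13.5% of the mean of hMCE and hPEN, with quartiles of 10.1 and 18.5% and a range of 0.00762 to 77.7%. LEC1 in that library was at 11.2% of its mean in the same endosperm libraries. The median was 5.52% for members in hCPT replicate 3, and 4.89% for LEC1. Whether RNA of endosperm reached these maternal libraries was not tested.

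Most members were higher in hPEN than in hMCE, as were most other genes. The mean was higher in hPEN for 120 of 150 members (80.0%), and for 78.8% of the 38932 genes above 1 TPM in either tissue. The median log2 difference, hPEN minus hMCE, was 0.45 over members and 0.44 over those genes, close to each other. Every hPEN library exceeded every hMCE library for 70 members (46.7%) against 40% of those genes. All 150 members had means of at least 10 TPM in both tissues. Among the 5012 genes at that level, 84.9% had a higher mean in hPEN, against 80.0% of members. These values come from libraries the rule used and carry no test. Every hMCE library exceeded every hPEN library for 7 members. This count and the 2-fold counts that follow have no share over all genes to set them against. The means lay within 2-fold for 108 members, while 38 were over 2-fold higher in hPEN and 4 over 2-fold higher in hMCE.

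**Figure D4:**
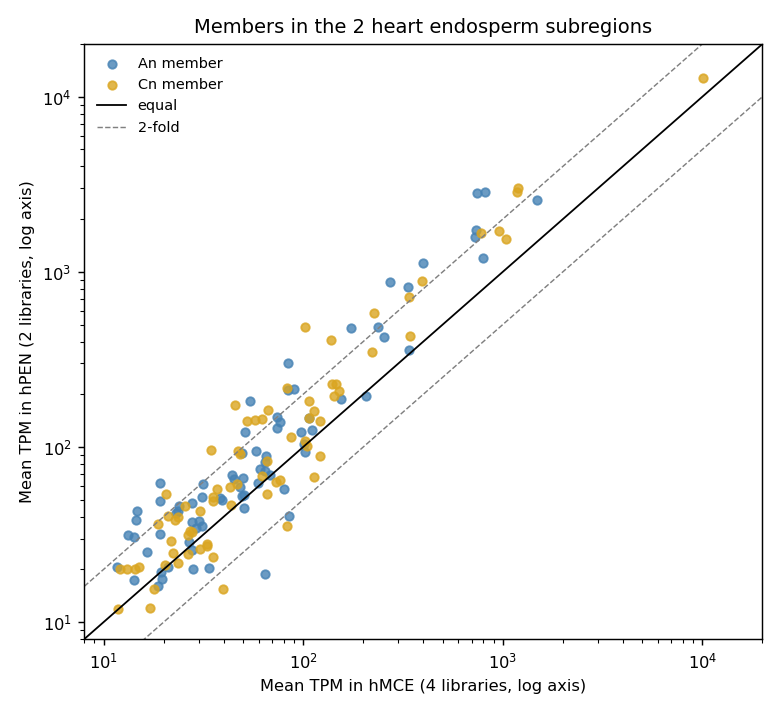
Mean TPM in hPEN against mean TPM in hMCE for each of the 150 members, on log axes, with lines of equal and of 2-fold different levels; colours mark the An and Cn subgenomes. Most points lie above the line (120 of 150), and 108 lie within 2-fold of it.

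The extremes were BnaC08g20970D and BnaA07g38380D. BnaC08g20970D had 224 and 741 TPM in hPEN against 92.9, 202, 57.6 and 57.5 TPM in hMCE, which is 4.71 times as much by the means. BnaA07g38380D had 15.6 and 22.1 TPM in hPEN, against 72.9, 50.8, 69.1 and 65.4 TPM in hMCE, a ratio of 0.292. The second hPEN library exceeded the first for 137 of 150 members (91.3%), by a median of 1.46-fold, against 84.1% of 5012 genes of at least 10 TPM in both tissues, by a median of 1.36-fold. Within hMCE, the highest library was a median 1.41 times the lowest for members and 1.51 times for those genes. The 2 hPEN libraries limit the precision of every difference between the tissues.

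Heart-stage levels stood far above those of the earlier endosperm. The difference in mean log2(TPM + 1) between hMCE and gMCE had a median of 4.60 over members (2.50 to 8.77), against 0.43 over all genes above 1 TPM. Between hPEN and gPEN it was 5.61 (2.58 to 8.67), against 0.44. The median was 4.84 between hMCE and hCZE, 4.67 between hMCE and hEP and 3.72 between hMCE and hISC. The rule sets a minimum for each of these values. All 150 members passed 1 TPM in hMCE and in hPEN. The gMCE mean passed it for 67 members (44.7%), against 30% of all genes. In gPEN 39 members passed (26%, against 30.3% of all genes), in gCZE 13 (8.67%, against 26.7%) and in hCZE 48 (32%, against 31.2%). In the embryo 56 members passed in gEP (37.3%, against 38.4%) and 60 in hEP (40%, against 33.3%). The shares in gPEN, gCZE, hCZE and gEP were near or below those of all genes.

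By the mean, 140 members passed in hISC (93.3%, against 44.4% of all genes), 136 in hCZSC (90.7%, against 91.0%) and 111 in hCPT (74%, against 64.6%). These means differ from the single libraries. The number above 1 TPM was 147, 84 and 98 in the hISC libraries, 26, 103 and 147 in the hCZSC libraries, and 44, 34 and 142 in the hCPT libraries. Of all genes, 32.4% passed 1 TPM in hMCE and 36.3% in hPEN.

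Gene functions are known for few members. The deposited identifiers carried no symbols, and partial annotation lists from the study gave terms for 24 members. No member was on the study's list of named genes. BnaA09g12700D (127, 113, 101 and 103 TPM in hMCE, 99.9 and 151 TPM in hPEN) and BnaC09g13020D (104, 79.8, 82.7 and 80.7 TPM in hMCE, 89.3 and 138 TPM in hPEN) are annotated as aspartate aminotransferases, enzymes that move amino groups between amino acids and keto acids. Their libraries overlapped between the tissues. BnaA03g46550D and BnaC07g38840D are annotated as calmodulin-binding transcription factors, with 48.1 to 51.8 and 26.8 to 33.2 TPM in hMCE and 58.8 to 74.9 and 37.3 to 48.6 TPM in hPEN. Polyamine synthesis, which yields spermidine, was annotated for BnaC03g77590D (33.7, 24.2, 28.8 and 24.2 TPM in hMCE, 33.5 and 31.8 TPM in hPEN) and BnaA08g13330D (32.3, 25.2, 25.7 and 27.2 TPM in hMCE, 44.0 and 52.3 TPM in hPEN).

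Sugar metabolism was represented by BnaA07g18380D, annotated for fructokinase activity and starch synthesis (37.9, 30.5, 34.7 and 32.4 TPM in hMCE, 20.2 and 20.4 TPM in hPEN). It had 19.6 and 17.2 TPM in gMCE replicates 4 and 5 but at most 0.0109 TPM in gMCE replicates 1 to 3. BnaA03g29310D, annotated as a glucose transporter, had 19.9, 16.5, 20.5 and 20.7 TPM in hMCE and levels within that range in hPEN. BnaC04g34810D, with heme binding and hydrogen peroxide breakdown terms, had 58.0, 46.7, 60.9 and 64.3 TPM in hMCE and 120 and 165 TPM in hPEN. BnaA05g36680D and BnaCnng31370D carry an acetylglucosaminyltransferase term, and 12 members carry a nucleus term. BnaA06g03090D, annotated for DNA binding and embryo development, had 18.7, 23.2, 16.9 and 19.5 TPM in hMCE and 13.5 and 21.6 TPM in hPEN.

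Brassica napus carries 2 subgenomes, An and Cn. Members were 76 An and 74 Cn genes (49.3% Cn), against 55.8% Cn of all genes placed and 52.5% of genes at 1 TPM or more in both tissues. Among chromosomes, A07 held 15 members, or 3.82 per 1000 of its genes, and C02 held 13, while 19 members were on unplaced sequence. A total of 9 pairs of neighbouring identifiers accounted for 17 members. Over the 74 libraries, log2(TPM + 1) of BnaA07g23590D and BnaA07g23600D correlated with r = 0.995, and of BnaA02g24080D and BnaA02g24090D with r = 0.98. For BnaC02g01710D and BnaC02g01720D, r was 0.51. Homoeologs and neighbouring copies may share reads, and the counting kept uniquely mapped reads only, so the split between near-identical copies is uncertain.

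The study's list of homoeologous pairs, of which only a part was used, held 18 pairs with a member. In 10 pairs both genes were members, and in 8 one was. All 8 partners scored above 0 and had their highest mean in hMCE or hPEN. In 9 of the 10 pairs the An gene was higher in all 6 libraries, but the list was used only in part, so nothing is read from this count. BnaA06g06160D and BnaC05g07900D gave the Cn gene 39.2% of the pair's level in hMCE and 39.9% in hPEN. BnaA08g13750D (610 and 1021 TPM in hPEN, 338, 418, 297 and 293 TPM in hMCE) and BnaC08g13020D (52.3 and 82.2 TPM in hPEN, 93.4, 216, 71.1 and 72.4 TPM in hMCE) gave 7.62% in hPEN and 25.2% in hMCE, by the means, so the Cn gene's share was lower in hPEN.

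Across all 26 subregions, the highest mean was in hPEN for 119 members, in hMCE for 28, and elsewhere for 3. BnaA01g31340D had means of 18.6 TPM in hMCE and 16.1 TPM in hPEN, against 396 TPM in mgCPT. BnaC02g01710D had 32.8 TPM in hMCE and 27.9 TPM in hPEN, against 48.0 TPM in mgISC. BnaC06g43790D had 37.2 TPM in hMCE and 57.5 TPM in hPEN, against 68.7 TPM in ovCPT. These subregions were outside the rule, and it is in mature green and ovule libraries that members could be tested.

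Mature green maternal tissue was compared with ovule tissue over the 4 shared maternal tissues, by limma with Benjamini-Hochberg adjustment over 98024 genes, of which 148 members passed the filter (BnaA02g18130D and BnaC01g02910D did not). In mature green tissue 46 members (31.1%) rose, against 13.1% of all genes, and 11 (7.43%) fell, against 39.2% of all genes. The rule required lower levels in the same maternal tissues of the globular and heart stages than in hMCE and hPEN. All genes are therefore not a matched background, and a gene with little ovule signal can hardly fall on this scale. The median log2 change was 0.34 over members and -0.16 over all genes. Members with a mean above 1 TPM were 20.7% in ovCZSC (all genes 49.7%), 21.3% in ovISC (51.3%) and 38.7% in ovOSC (60.2%). In ovCPT they were 74% (78.2%). In mature green tissue they were 59.3% in mgCZSC (57.4%), 72.7% in mgISC (69.4%), 64.7% in mgOSC (65.9%) and 87.3% in mgCPT (79.9%). Mature green maternal libraries had 34389 to 91094 genes above 1 TPM. The part of low ovule levels in the rises was not tested. Higher calls were 80.7% of the members' calls and 25% of those of all genes, 86.4% and 44.5% under quantile normalization, and 91.4% and 45.0% after removal of genes of at least 1000 TPM. Without ovCPT replicate 1, 65 members rose (43.9%, against 20% of all genes) and 20 fell (13.5%, against 41%). Without the libraries whose label went against the title, 33 rose (22.8%, against 8.83%). Of 27 storage genes 26 rose, with a median of 8.34, and LEC1 and CEP1 rose for 1 of 2 genes each. CUT1 fell for 2 of 2 genes, with a median of -2.19, and WIH1 and WIH2 for 2 of 3, with a median of -1.12. The part of these marker changes in the members' change was not tested.

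**Figure D5:**
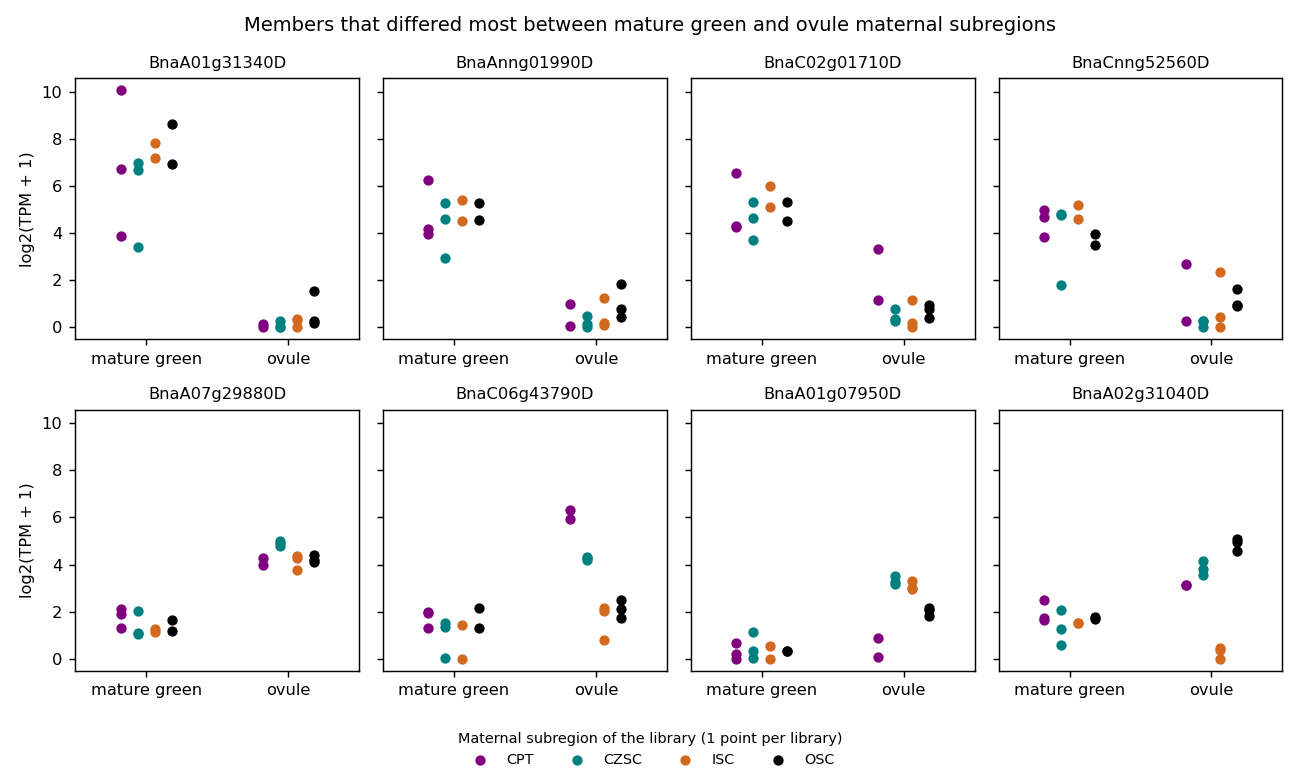
log2(TPM + 1) of 8 members in each maternal library of the mature green and ovule stages, coloured by tissue. BnaA01g31340D (log2 change 6.71) lies above all ovule libraries in every mature green library, and BnaA07g29880D (-2.91) lies below them.

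BnaA01g31340D rose most. It had 9.69, 124 and 1069 TPM (lowest, median and highest) in mature green maternal tissue, against 0.00117, 0.128 and 1.91 TPM in ovules, a log2 change of 6.71 (SE 0.53, adjusted p = 1.65e-10 by limma). Its mgCPT libraries alone ranged over 13.6, 106 and 1069 TPM. BnaAnng01990D had 6.71, 22.5 and 74.6 TPM, against 0.000587, 0.360 and 2.55 TPM in ovules, a change of 4.16 (SE 0.32, adjusted p = 8.95e-11 by limma). BnaC02g01710D had 12.1, 28.9 and 91.3 TPM, against 0.000415, 0.688 and 8.96 TPM, a change of 4.06 (SE 0.32, adjusted p = 1.27e-10 by limma). In these 3 genes the groups did not overlap. BnaCnng52560D had 2.41, 23.9 and 35.4 TPM, against 0.00245, 0.341 and 5.49 TPM in ovules, with overlap and a change of 3.28 (SE 0.39, adjusted p = 9.63e-08 by limma).

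The 21 genes named for score or abundance gave 11 that rose and 10 that did not pass the test, and none fell. Of all members tested 31.1% rose and 7.43% fell, and of all genes 13.1% rose and 39.2% fell. All genes are not a matched background for these 21 either, so nothing is read from their counts. Of the 11, BnaA06g06160D, BnaC04g36500D and BnaCnng77960D lost the call in 18 of 35, 23 of 34 and 22 of 34 alternatives. BnaC04g30640D had 1.20, 20.5 and 61.9 TPM in mature green maternal tissue, against 0.00246, 0.293 and 4.55 TPM in ovules, a log2 change of 3.15 (SE 0.49, adjusted p = 6.05e-06 by limma). BnaC05g07900D gave 2.45 (SE 0.38, adjusted p = 7.13e-06) and BnaC05g07890D 2.35 (SE 0.42, adjusted p = 4.65e-05 by limma). The highest mature green level of BnaC04g30640D, 61.9 TPM, stands against a lowest hMCE level of 8513 TPM.

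The members that fell most were those with an ovule level. BnaA07g29880D had 1.06, 1.42 and 3.34 TPM in mature green maternal tissue, against 12.5, 18.7 and 30.9 TPM in ovules, with no overlap and a log2 change of -2.91 (SE 0.16, adjusted p = 3.22e-13 by limma). BnaC06g43790D had 0.00333, 1.61 and 3.49 TPM, against 0.736, 4.66 and 77.8 TPM, with overlap and a change of -2.25 (SE 0.23, adjusted p = 1.11e-08 by limma). Its ovCPT libraries (77.8 and 59.7 TPM) and ovCZSC libraries (17.1 to 18.7 TPM) were the high ones. BnaA01g07950D had 0.000717, 0.257 and 1.21 TPM, against 0.0508, 6.83 and 10.4 TPM in ovules, a change of -1.88 (SE 0.17, adjusted p = 9.88e-10 by limma). BnaA02g31040D had 0.514, 2.19 and 4.65 TPM, against 0.000521, 10.9 and 33.1 TPM in ovules, where ovOSC reached 22.8 to 33.1 TPM and ovISC at most 0.362 TPM. Its change was -1.40 (SE 0.17, adjusted p = 2.08e-07 by limma).

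The mature green embryo was compared with the maternal tissue of the same stage, and the direction of this comparison depended on scaling. By limma on the TPM scale, 135 of 148 members fell in the embryo (91.2%) and 0 rose, against 92.4% of all genes that fell and 0.0612% that rose. Under quantile normalization 8 members fell (5.41%) and 32 rose (21.6%), against 17.5% and 20% of all genes, and the median of all genes was -0.02 in place of -1.08. The median log2 change over members was -1.04 on the TPM scale. Without the libraries whose labels went against their titles, 85 of 145 members fell (58.6%), against 69.4% of all genes. Summed member TPM was 56.4 to 208 in embryo libraries, and 278 to 1638 in maternal ones. BnaA03g17700D had 0.0547, 0.165 and 0.341 TPM in the embryo, against 2.95, 4.87 and 8.53 TPM in maternal tissue, and fell by 2.36 on the log2 scale (SE 0.29, adjusted p = 6.00e-07 by limma). BnaAnng01990D had 1.87, 5.44 and 6.46 TPM, against 6.71, 22.5 and 74.6 TPM, with a change of -2.23 (SE 0.40, adjusted p = 4.96e-05 by limma). BnaA01g31340D had 89.0, 36.6 and 113 TPM in mgCOT and 5.83 and 4.74 TPM in mgROOT, against the maternal range of 9.69 to 1069 TPM, with a change of -2.55 (SE 0.67, adjusted p = 0.00171 by limma). For BnaC02g01710D the change was -2.15 (SE 0.40, adjusted p = 7.10e-05 by limma). BnaAnng01990D, BnaA01g31340D and BnaC02g01710D turned positive under quantile normalization and after removal of genes of at least 1000 TPM, at 0.20 to 0.76.

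Between the cotyledons and the root of the mature green embryo, no member passed the limma test, against 0% of genes called higher in mgCOT and 0.00204% called lower. At an unadjusted limma p under 0.05, 2 of 148 members were higher and 1 lower, against 163 and 188 of 98024 genes. The comparison has 3 mgCOT and 2 mgROOT libraries. The fit shared the spread of each gene over all mature green and ovule libraries, so the interval also reflects the maternal ones. BnaC01g20930D ran from 0.264 to 0.871 TPM in the embryo and from 0.00247 to 9.14 TPM in mature green maternal tissue (SE 0.63). With library weights (arrayWeights), 1197 genes were higher and 1882 lower at an unadjusted limma p under 0.05. The test therefore cannot decide whether levels differ, and a missed threshold does not show equal levels.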

How the data were processed

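The authors aligned reads with HISAT2 to the Darmor-bzh genome and counted uniquely mapped reads with featureCounts, per the study's methods (versions not given in the sources used here). They deposited 1 table of TPM for 101040 genes and 74 libraries, with a small constant so that no value is 0. Whole reads were recovered from low TPM values (within 0.05 of a whole number) for 100657 genes, and the depths are lower limits. Subregions follow the titles. The mature green and ovule libraries alone were tested with limma 3.58.1 (R 4.3.3, Python 3.11.15), with a variance trend on log2(TPM + 1), a pseudocount of 1 TPM, two-sided, with Benjamini-Hochberg adjustment at 0.05 over genes whose mean reached 1 TPM in any of the 10 subregions fitted. In simulated data for the embryo comparison (89690 genes, 200 changed by 2 on the log2 scale), 100% were called and 5.66% of calls were unchanged genes. The simulated noise had the same spread in every gene and library, with no other difference between subregions. These rates therefore need not hold for the measured libraries. The measured comparison called 92.4% of genes lower, and the error rate under changes of that extent was not tested. Members and lists were selected with earlier results of these data known. Named were the 12 members of highest score, the 10 most abundant, the 4 that rose and fell most in each contrast, and those beside the score limit, with annotated members, pairs, exceptions and extremes added after their values were seen. Alternatives changed the pseudocount, filter, scaling, fit, libraries, library weights (arrayWeights) and replicate block; leaving out hISC replicate 1, hCPT replicate 3, hCZSC replicate 3, or gMCE replicates 4 and 5 was chosen after seeing the data.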

Additional observations from a re-analysis of the deposited data

Results flagged for a closer look

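In 36 groups of at least 4 libraries, 3 had a library far from the rest. The groups included 33 named genes measured in shared libraries, so they are not independent. A chance rate of 1 group in 20 therefore cannot be applied to them. The summed member TPM of gMCE replicate 4 was 1306, against 695 to 783 in the other 4 gMCE libraries. BnaC03g36310D had 185 TPM in hMCE replicate 2, against 122 to 133 TPM in the other 3 hMCE libraries. BnaC05g07890D had 1331 TPM in hMCE replicate 2, against 911 to 966 TPM in the others. Over all members, 16 of 150 had such a library in hMCE. The share over all genes was not computed, so nothing about the members is read from this count.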

How the results depend on the processing

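In the mature green embryo comparison, 32 members were higher and 8 lower under quantile normalization (19588 and 17166 genes), and 5 were higher and 72 lower after removal of genes of at least 1000 TPM (3086 and 70497 genes). A filter at 5 TPM left 50 members and 46755 genes lower, and leaving out the libraries whose label went against the title left 85 members and 67314 genes lower. BnaA01g31340D gave 0.76 under quantile normalization and 0.20 after removal of the high genes, BnaAnng01990D 0.43 and 0.38, and BnaC02g01710D 0.62 and 0.51. In the mature green against ovule comparison at 5 TPM, 22 of 57 members (38.6%) rose, against 4653 genes (9.32%). At that filter 11 members (19.3%) fell, against 66.6% of genes. Without the high genes 74 members rose (49.3%, against 24728 genes, 24.7%) and 7 fell (4.67%, against 30284 genes, 30.3%). Under quantile normalization 20350 genes rose and 25375 fell. Leaving out 1 library at a time gave 33 to 65 members that rose (lowest without mgISC or mgOSC replicate 1, highest without ovCPT replicate 1), 10 to 20 that fell and 8859 to 19505 genes that rose. The highest counts that fell (20) and rose (19505) were without ovCPT replicate 1, and 8859 was without mgOSC replicate 1. Between cotyledon and root, quantile normalization gave 1 member higher and 2 lower (130 and 285 genes), removal of high genes 1 member lower (27 and 75 genes), arrayWeights 1 higher and 2 lower (188 and 299 genes), a fit of all 74 libraries 10 genes lower, leaving out the libraries whose label went against the title 1, and leaving out 1 library 0 to 3. A lone library left in a subregion was assumed to vary like the others. The median number of members above the limit in the other 24 subregions was 52, 11.5 at 5 TPM, and 21 when every library had to pass. Other scores kept at least 120 of the 150 members, the fewest under quantile normalization. The arrayWeights fit stopped before full convergence. The cause of these changes was not tested.

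Libraries with the same replicate number did not deviate together: over 96 such pairs the correlation of deviations ran from -0.61 to 0.38, with 12 above 0.1, and 8 of 25 libraries correlated best with their own number. With the replicate number as a block, 40 members rose (27.0%, against 11.3% of all genes) between mature green and ovule tissue. In the same fit 11 members fell (7.43%, against 39.1% of all genes), and 0 genes were lower between cotyledon and root. Depth of 265765 reads in ovCPT replicate 2 limits what can be detected there. That library alone represents ovCPT when replicate 1 is left out.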
